A study of Mus musculus with 10 samples.

Results

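Genes of the colony stimulating factor 1 (CSF1) axis and genes used as markers of tissue-resident macrophages were followed in the interscapular brown fat (iBAT) of mice that lack the cardiolipin synthase Crls1 in adipocytes. The 10 genes were chosen by symbol, and all 10 were found among the 15075 genes measured, each as 1 RefSeq transcript. They are the ligands Csf1 and Il34, their receptor Csf1r, the resident macrophage markers Mrc1, Cd163, Lyve1, Folr2 and Timd4, and the general myeloid genes Lyz2 and Itgam. Polyadenylated RNA was sequenced from 5 Control and 5 AdCKO mice, with 1 library per mouse, and the 2 groups are the whole series. All mice were of the C57BL/6 strain, 20 weeks old and kept at room temperature. Both groups carried the Crls1 allele with loxP sites around exon 4, Control mice had no Cre (the labels call them wild type), and AdCKO mice also carried Cre under the adiponectin promoter. That promoter is active in adipocytes of every fat depot and was not aimed at macrophages, and the RNA came from whole tissue.

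CSF1R is the receptor tyrosine kinase of the mononuclear phagocyte lineage, and signalling through it keeps macrophages alive and dividing. It has CSF1 and IL-34 as its ligands, which are made by neighbouring cells rather than by most macrophages. Resident macrophages of fat lie along vessels and between adipocytes and carry scavenger and endocytic receptors such as CD206, LYVE1 and the folate receptor beta, while lysozyme and CD11b are shared by monocytes, macrophages and granulocytes.

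The deposited values are normalized reads per kb of counted exon, so levels can be compared between genes. Their totals after normalization lay between 7615403 and 8171138 for Control libraries and, with no overlap, between 5419800 and 5843024 for AdCKO libraries. The targeted gene bore out the labels: Crls1 was 813 to 1291 in the Control mice and 193 to 249 in the AdCKO mice (limma log2 difference -2.27, SE 0.126, adjusted p = 3.53e-08). Skeletal muscle RNA was high in some libraries. The summed level of 8 muscle genes was between 113 and 146 in Control, and it was 6842, 26350, 162, 10320 and 147 in AdCKO mice 1 to 5.

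The start of a myeloid gene is often bound by PU.1, the transcription factor (gene Spi1) that sets up the myeloid lineage. The 250 bases upstream of the annotated start were therefore read for 9 of the 10 genes from the mm9 genome (the window of Lyve1 was not analysed here). They were searched on both strands for the letters GAGGAA, a PU.1 core. These letters were found upstream of Mrc1 and Itgam, 2 of the 9, against 23.1% of the 15075 windows of this length. Shown here, 5′ to 3′ on the strand of the gene, are those 2 windows and that of Cd163, which holds no such letters. Cd163 is a marker that did not pass the test of expression. Csf1, Csf1r, Folr2 and Lyz2, which were called higher, hold no such letters either, nor do Il34 and Timd4, which were not called. Capitals mark GAGGAA or its reverse complement TTCCTC.
Mrc1 (chr2:14150791-14151040, plus strand): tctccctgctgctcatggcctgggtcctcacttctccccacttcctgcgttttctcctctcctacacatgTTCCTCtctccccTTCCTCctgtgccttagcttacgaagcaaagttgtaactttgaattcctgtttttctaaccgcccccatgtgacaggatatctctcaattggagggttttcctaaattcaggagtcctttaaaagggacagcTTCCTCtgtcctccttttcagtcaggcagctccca
Itgam (chr7:135205904-135206153, plus strand): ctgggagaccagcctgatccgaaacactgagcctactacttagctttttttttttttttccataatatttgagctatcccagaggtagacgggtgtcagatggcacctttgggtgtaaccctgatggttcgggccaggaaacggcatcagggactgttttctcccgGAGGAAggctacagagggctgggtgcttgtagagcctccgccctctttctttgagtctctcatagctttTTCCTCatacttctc
Cd163 (chr6:124254419-124254668, plus strand): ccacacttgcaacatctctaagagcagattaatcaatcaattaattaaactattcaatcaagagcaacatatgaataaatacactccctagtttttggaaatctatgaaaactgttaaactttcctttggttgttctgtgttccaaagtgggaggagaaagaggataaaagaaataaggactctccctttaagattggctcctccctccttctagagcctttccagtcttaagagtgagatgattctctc
The AP-1 letters TGAGTCA were found upstream of Csf1r and Folr2 (3.33% of all windows), the RUNX letters TGTGGT upstream of Lyz2 (11.1%), and the E-box letters CACGTG upstream of none of the 9 (7.87%). These matches describe the letters only.

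Of the 10 genes, 7 were higher in AdCKO than in Control iBAT, and the 2 groups did not overlap for any of them. These were Csf1, Csf1r, Mrc1, Lyve1, Folr2, Lyz2 and Itgam, with increases of the mean from 2.69-fold for Csf1 to 11.1-fold for Lyz2. None of the 10 was lower. Il34, Cd163 and Timd4 were not called in either direction. Calls rest on limma, fitted to log2(value + 1) over every gene whose mean reached 10 in either group, with adjusted p below 0.01 as the threshold, on a scale that understates the change of low genes. The background of such calls was wide: 25.6% of the 11244 tested genes were called higher and 28% lower. Itgam and Lyve1 entered the test only through their AdCKO mean and Cd163 only through its Control mean. In the fit of all 15075 genes without that filter the same count, 7 of 10, was called higher, against 24.7% of all genes, and AdCKO lay wholly above Control in 24.6% of all genes.

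**Figure D1:**
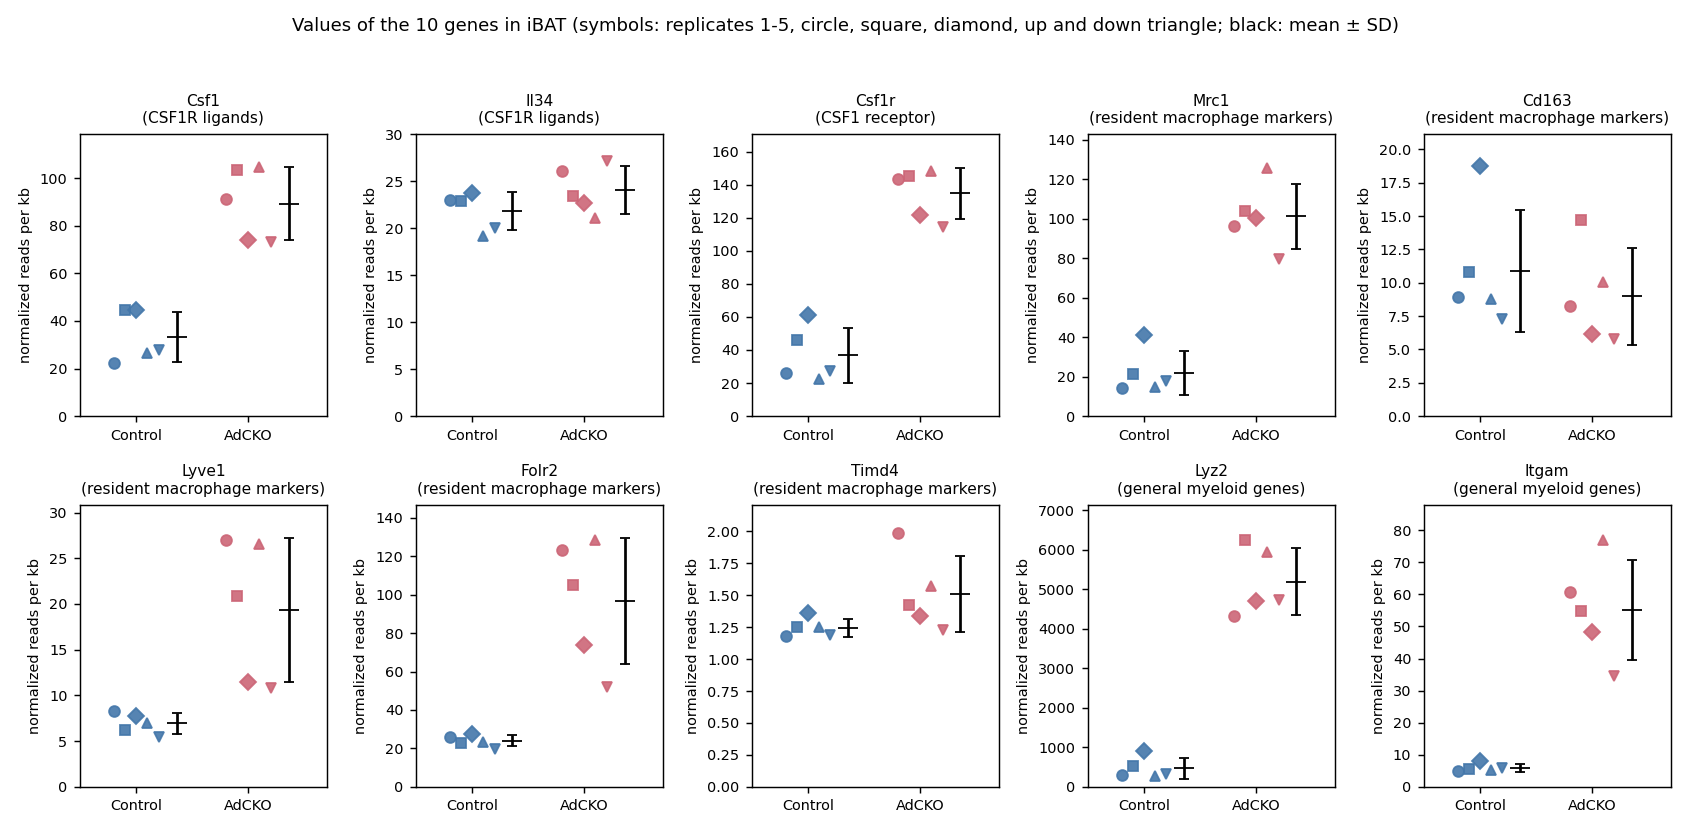
Deposited value of each gene in each library, in normalized reads per kb on a linear axis from 0, for 5 Control (blue) and 5 AdCKO (red) mice, with the symbol giving the replicate number and the black bars the mean ± SD. The groups are apart for 7 genes and overlap for Il34, Cd163 and Timd4, and Control mouse 3 is the highest Control for Mrc1 at 41.1.

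Csf1, the growth factor on which most tissue macrophages depend (NM_007778, mm9 chr3:107543966-107563387, minus strand, 9 exons), was the ligand that rose. Its level in Control mice 1 to 5 was 22.5, 44.4, 44.6, 26.5 and 27.9 normalized reads per kb. In AdCKO mice 1 to 5 it was 91.3, 103, 74.1, 105 and 73.3. The lowest AdCKO mouse lay above the highest Control mouse, and the means were 33.2 ± 10.5 and 89.4 ± 15.2 (SD, n = 5). On the log2 scale limma gave a difference of 1.44 (SE 0.192, adjusted p = 3.32e-05), and 6.35% of tested genes had a larger one.

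Il34, the other ligand of CSF1R, known from skin and brain where it maintains Langerhans cells and microglia, stood almost level (NM_001135100, chr8:113265729-113329824, minus strand). It was 23.0, 22.9, 23.7, 19.2 and 20.1 in the Control mice. It was 26.1, 23.4, 22.6, 21.0 and 27.2 in the AdCKO mice. The ranges overlapped, and the log2 difference of 0.14 had a 95% interval from -0.07 to 0.34 (SE 0.0954, limma adjusted p = 0.225). This interval lies wholly below the estimate for Csf1. The direction of Il34 depended on the scaling. After scaling every library to an equal total it was 0.60 and called (adjusted p = 0.00011), but there the median of all genes also moved up by 0.47 and 61.4% of genes were called higher, and with quantile normalization it was -0.16 (adjusted p = 0.165). Exons of Il34 overlap those of Gm15894 and Gm15895 on the opposite strand, and the counting is not stated to use strand, so reads of these genes cannot be told apart.

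The balance of the ligands thus differed between the groups. Within a library, Csf1 was 97.6% to 194% of Il34 in Control and 270% to 498% in AdCKO, without overlap. The log2 ratio of Csf1 to Il34 was higher in AdCKO by 1.30 (exact two-sided permutation test over libraries, p = 0.0079, the smallest that 5 mice against 5 allow). Such a ratio does not depend on a scaling factor of the library, apart from the pseudocount.

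Csf1r itself (NM_001037859, chr18:61265226-61290793, plus strand, 22 exons) rose more than its ligands. It was 26.2, 46.0, 61.1, 22.7 and 27.2 in the Control mice. It was 144, 145, 122, 149 and 114 in the AdCKO mice. Control mice 2 and 3 were the highest of their group, as for Csf1, and no AdCKO mouse came near them. The means were 36.7 ± 16.4 and 135 ± 15.5 (SD, n = 5), a log2 difference of 1.94 in limma (SE 0.231, adjusted p = 1.29e-05). Relative to the receptor, Csf1 was lower in AdCKO by 0.50 and Il34 by 1.81 on the log2 scale (exact permutation test, p = 0.0079 for each). In whole tissue, more cells of a type and more RNA per cell cannot be told apart, for this gene or any below.

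Most tested genes of CSF1R signalling were higher. Of 23 genes listed for this pathway, 21 were tested, 17 were called higher, none lower and 4 not called. Among all tested genes 25.6% were called higher and 28% lower. The median log2 fold change was 1.29 against -0.01 over all tested genes. The adaptor Gab2 rose by 0.98, the kinases Lyn and Syk by 0.96 and 2.58, and the signalling partner Tyrobp, the most abundant of the list in AdCKO, by 2.98. Sos1 (0.07), Shc1 (0.18), Cblb (0.22) and Pik3r1 (-0.64) were not called, and Cbl and Gab3 were under the filter. Most of these genes serve other receptors of blood cells too. Of 3 proteins listed as other binding partners of IL-34, Trem2 (13.1 in Control and 190.2 in AdCKO, log2 fold change 3.75) and Sdc1 (10.3 and 70.1, 2.65) rose, while Ptprz1 was under the filter in both groups. Among the 12 genes of the other colony stimulating factors and their receptors, 7 were tested, and Csf3r was among those under the filter. Of the 7 tested, 5 were higher, among them the receptor chains Csf2ra (2.30), Csf2rb (1.65), Csf2rb2 (2.46) and Il3ra (1.31), and Kitl was not called. Kit, the receptor of stem cell factor, went the other way, from 45.4 to 12.4 (log2 fold change -1.73, adjusted p = 1.83e-05).

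Myeloid transcription factors were mixed. Of 11 tested, 5 were higher, 2 lower and 4 not called (median 0.35), against 25.6% of all tested genes higher and 28% lower. This depended on the scaling. On equal library totals 9 were higher and 1 lower of 12 tested (median 1.06), but there 61.4% of all genes were called higher. With quantile normalization 6 were higher and 1 lower, against 22.2% of all genes higher. Spi1, which encodes PU.1, rose from 24.95 to 151 (log2 fold change 2.56, adjusted p = 2.57e-07), Egr2 from 3.90 to 22.2 and Maf, a factor of resident macrophages, from 25.7 to 88.45. Cebpa and Nr1h3, which are both also expressed by adipocytes, fell by 1.11 and 0.37 on the log2 scale.

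Among the resident markers, Mrc1 and Folr2 rose most. Mrc1, the mannose receptor CD206 (NM_008625, chr2:14151041-14253650, plus strand, 30 exons, with Mir511 inside the gene), was 14.3, 21.5, 41.1, 14.6 and 18.0 in the Control mice. It was 96.5, 104, 100.2, 126 and 79.5 in the AdCKO mice. Control mouse 3 had more than the other Control mice but under the lowest AdCKO mouse. The means were 21.9 ± 11.1 and 101 ± 16.6 (SD, n = 5), and limma put the log2 difference at 2.25 (SE 0.241, adjusted p = 5.34e-06).

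Folr2, the folate receptor beta of perivascular macrophages (NM_008035, chr7:108988502-108993845, minus strand, 5 exons), was 25.8, 22.9, 27.7, 23.6 and 19.9 in the Control mice. It was 123, 105, 74.0, 129 and 51.9 in the AdCKO mice. AdCKO mice 3 and 5 were the lowest of their group but still above every Control mouse. The difference came to 1.90 log2 units (SE 0.216, adjusted p = 9.08e-06).

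Lyve1, a hyaluronan receptor of a subset of resident macrophages and of lymphatic endothelium, stood at a lower level (NM_053247, chr7:117994121-118006467, minus strand, 6 exons). It was 8.28, 6.20, 7.80, 7.04 and 5.42 in the Control mice. It was 27.0, 20.9, 11.5, 26.6 and 10.8 in the AdCKO mice. AdCKO mice 3 and 5 were again the low ones of their group, and the groups did not overlap. In limma the log2 difference was 1.27 (SE 0.248, adjusted p = 0.00068).

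AdCKO mice 3 and 5 were also the ones without the high skeletal muscle RNA of AdCKO mice 1, 2 and 4. Their summed muscle levels were 162 and 147, just above the highest Control sum of 146. They were the lowest of their group for Csf1, Csf1r, Cd163, Itgam and Timd4 too, but not for Mrc1, Lyz2 or Il34. Without AdCKO mice 1, 2 and 4, an alternative chosen after seeing the data, all 7 genes were still called higher, but the log2 fold change of Lyve1 was 0.63 (adjusted p = 0.00869). For Folr2 it was 1.34, for Itgam 2.61, for Csf1 1.18, for Csf1r 1.76, for Mrc1 2.09 and for Lyz2 3.485. Whether the muscle RNA or what came with it has a part in these values was not tested. Lymphatic endothelial genes, the other source of Lyve1, were mostly low. Prox1, which defines that cell type, was at 0.346 in Control and 0.372 in AdCKO, far under the filter, where values hardly vary between libraries. In all, 4 of 6 measured genes of that list were under the filter. Of these, Reln went from 1.41 to 5.08 without overlap (log2 difference 1.32, adjusted p = 1.00e-06 in the limma fit without a filter). Flt4 was not called, and Pdpn, also a fibroblast gene, was higher. The summed level of the list was 26.0 to 35.1 in Control and 40.7 to 58.3 in AdCKO, without overlap. The part of lymphatic endothelium in the level of Lyve1 was not tested.

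Cd163 did not follow Mrc1, Folr2 and Lyve1, and Timd4 was too low for a small change to be judged. Cd163, the scavenger receptor for haemoglobin and haptoglobin (NM_001170395, chr6:124254669-124280545, plus strand, 17 exons), was 8.90, 10.8, 18.8, 8.79 and 7.26 in the Control mice. It was 8.24, 14.7, 6.14, 10.05 and 5.78 in the AdCKO mice. The groups overlapped almost fully, and the log2 difference of -0.25 had a 95% interval from -0.83 to 0.33 (SE 0.266, limma adjusted p = 0.421). It was 0.18 with every library scaled to the same total, which is under the shift of 0.47 of all genes, and quantile normalization gave -0.64 (adjusted p = 0.0296). Leaving out AdCKO mice 1, 2 and 4 gave -0.70 (adjusted p = 0.0525). Without Control mouse 3, its highest value, it was -0.05 (adjusted p = 0.857) in the fit without a filter. The interval lies below that of Mrc1, Folr2 or Lyve1.

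Timd4, the phosphatidylserine receptor TIM-4 of long-lived resident macrophages (NM_178759, chr11:46624301-46657835, plus strand, 9 exons), was near the bottom of the measured range. It was 1.18 to 1.36 in Control (median 1.25) and 1.23 to 1.99 in AdCKO (median 1.42), with overlap and AdCKO mouse 1 the highest. In the fit without a filter the log2 difference was 0.15 (SE 0.0669, 95% interval 0.01 to 0.30, adjusted p = 0.067). On an equal total per library it was 0.43 and passed (adjusted p = 0.000281), and without AdCKO mice 1, 2 and 4 it was 0.02. Values this low hardly varied between Control libraries in the deposited table. Vsig4, another resident macrophage gene, was 0.649 ± 0.000978 in Control and 0.712 ± 0.0409 in AdCKO (SD, n = 5). Reln, at a similar Control level per kb, went from 1.41 to 5.08 and passed in that limma fit (adjusted p = 1.00e-06). A large change could thus be seen at such levels, but a small change of Timd4 cannot be judged.

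A longer list of 21 other resident macrophage genes was read in the same fit. Of the 16 tested, 12 were higher, none lower and 4 not called, with a median of 1.14. Over all tested genes 25.6% were higher and 28% lower. On equal library totals all 16 were higher, but there 61.4% of all genes were. Siglec1 (sialoadhesin) rose by 2.50, Maf by 1.76, the scavenger receptor Stab1 by 1.12 and Gas6, a ligand of phagocytic receptors, by 1.07 on the log2 scale. Sepp1, the most abundant of the list and a plasma selenoprotein made by many cells, was 3697 in Control and 3394 in AdCKO and not called. The summed level of the list, most of it Sepp1, overlapped between the groups. Of the 4 tested genes of alternative activation, Il4ra (0.98), Clec10a (1.55) and Retnla (1.42) were higher and Mgl2 (0.32) was not called.

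**Figure D2:**
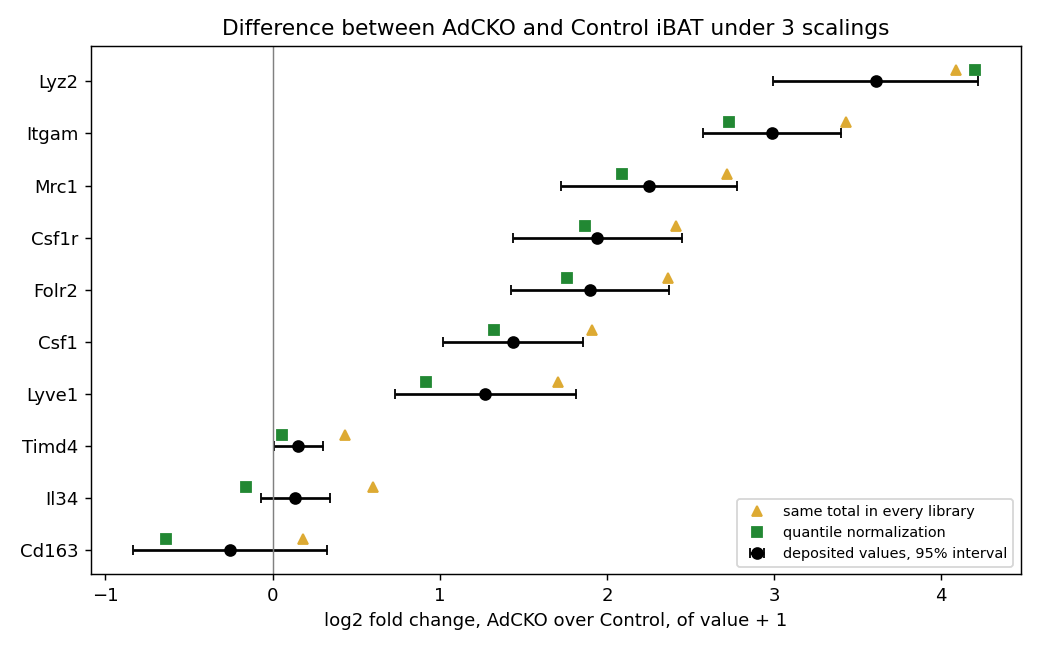
Log2 fold change of each gene, AdCKO over Control, of value + 1, with its 95% interval in the deposited scaling (black) and the estimate after scaling to equal library totals (yellow) or quantile normalization (green). Timd4 is from the fit without a filter, and Il34 and Cd163 change sign between scalings while the other 8 genes stay above 0.

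Lyz2, the lysozyme of monocytes, macrophages and granulocytes (NM_017372, chr10:116714597-116719328, minus strand), had the highest level and the largest increase of the 10. It was 290.3, 538, 905, 284 and 328 in the Control mice. It was 4331, 6254, 4714, 5950 and 4730 in the AdCKO mice. The lowest AdCKO mouse had over 4 times the level of Control mouse 3, the highest of its group. This amounted to 3.61 log2 units (SE 0.282, adjusted p = 4.18e-07), which ranked 28 from the top among 11244 tested genes. Lyz1, its neighbour on the same chromosome, was higher too (log2 fold change 3.39, adjusted p = 6.48e-07) and stayed between 8.32% and 12.0% of Lyz2 in every library. The coding sequences of the pair are identical in 425 of 447 positions (95.1%), so reads may have been split between them.

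Itgam, the integrin chain CD11b of myeloid cells (NM_001082960, chr7:135206154-135262005, plus strand, 30 exons), was nearly as changed. It was 4.80, 5.43, 8.15, 5.38 and 5.91 in the Control mice. It was 60.9, 54.7, 48.3, 77.1 and 34.6 in the AdCKO mice. Every AdCKO mouse had over 4 times the highest Control level. The estimate in limma was 2.99 log2 units (SE 0.191, adjusted p = 9.43e-08), which ranked 70 from the top.

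The order of the levels changed accordingly. In Control, Lyz2 stood alone at the top, Csf1r, Csf1, Folr2, Mrc1 and Il34 followed with overlapping ranges between neighbours, then Cd163, Lyve1 and Itgam, again overlapping, and Timd4 last. In AdCKO, Itgam had moved from the ninth place to the sixth, above Il34, Lyve1 and Cd163 in all libraries. Mrc1 moved from the fifth to the third by its mean only. It was above Il34 in 1 of 5 Control libraries and above Folr2 in 2 of 5 AdCKO libraries. Csf1r, Mrc1, Folr2 and Csf1 overlapped between neighbours in that order.

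Resident markers were next set against the general myeloid genes within each library. The 5 markers were divided by Lyz2, Itgam and Csf1r, 15 pairs in all, and each log2 ratio was tested by exact two-sided permutation of the libraries, with adjustment over the 15. The ratios of Mrc1, Folr2, Lyve1 and Cd163 to Lyz2 and to Itgam were lower in AdCKO without overlap (exact p = 0.0079, adjusted p = 0.00992 for each). Mrc1 was 4.00% to 5.49% of Lyz2 in Control and 1.67% to 2.23% in AdCKO, a log2 difference of -1.36. Folr2 was 3.06% to 8.87% of Lyz2 in Control and 1.10% to 2.84% in AdCKO (-1.71), and Lyve1 0.861% to 2.85% and 0.228% to 0.624% (-2.33). The ratio of Cd163 to Lyz2 differed most, by -3.86, where Cd163 itself was not called and Lyz2 rose. The ratios of Timd4 were lower as well (-3.45 to Lyz2), but at its level they follow the denominator and say nothing of Timd4. Against Itgam the differences ran from -0.74 for Mrc1 to -3.24 for Cd163. Itgam was only 4.80 to 8.15 in Control, so their size depends on the pseudocount. With a pseudocount of 10 the difference for Mrc1 was -0.15 (exact permutation test, adjusted p = 0.476). That for Folr2 was -0.41 (adjusted p = 0.0198) and that for Cd163 -2.13 (adjusted p = 0.0108).

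Against Csf1r the markers parted. Mrc1 kept pace and was 46.8% to 67.3% of Csf1r in Control and 67.2% to 84.5% in AdCKO, a log2 difference of 0.31 (exact p = 0.0159, adjusted p = 0.0183). This call was lost without Control mouse 2 (0.23, adjusted p = 0.0549), AdCKO mouse 3 (0.28, adjusted p = 0.0549) or AdCKO mouse 4 (0.27, adjusted p = 0.0733), and with a pseudocount of 10 or quantile normalization. Folr2 was 45.3% to 104% of Csf1r in Control and 45.4% to 86.5% in AdCKO (log2 difference -0.04, exact p = 0.873). Lyve1 was 12.8% to 31.6% of Csf1r in Control and 9.45% to 18.8% in AdCKO (-0.67, exact p = 0.0952, adjusted p = 0.102), and it passed with a pseudocount of 10 or quantile normalization. Cd163 was lower relative to Csf1r by 2.20 on the log2 scale, without overlap, with the same limit of its low level.

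**Figure D3:**
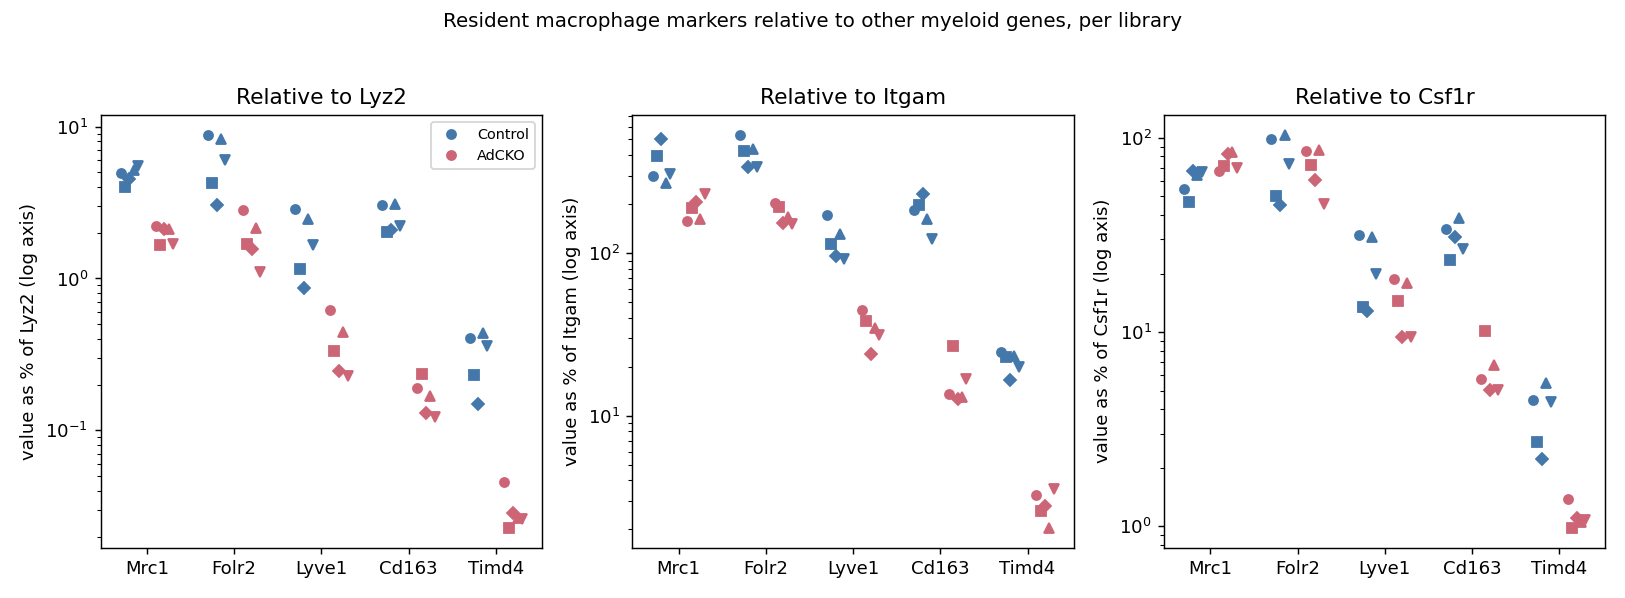
Each resident marker as a percentage of Lyz2, Itgam or Csf1r in the same library, on log axes, for 5 Control (blue) and 5 AdCKO (red) mice, with symbols giving replicates 1 to 5 as circle, square, diamond, up triangle and down triangle. All AdCKO points lie below the Control points for Lyz2 and Itgam, whereas for Csf1r those of Mrc1, Folr2 and Lyve1 overlap.

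The general side was also read in a longer list. Of 22 genes expressed across macrophages, 21 were tested and all 21 were higher, against 25.6% of all tested genes. With quantile normalization 19 were higher, where 22.2% of genes were called higher. The median log2 fold change was 2.66, and Cx3cr1 was under the filter. Cd14 (0.36) and Mertk (0.65) rose less than the resident markers Mrc1, Folr2 and Lyve1. Cd68, a lysosomal protein, rose from 59.4 to 977 (log2 fold change 4.10), Itgb2, the partner chain of Itgam, by 3.68, the leukocyte receptor Cd84 by 3.17, the Fc receptor chain Fcer1g by 3.12 and the complement subunit C1qb by 2.92. The summed level of the list was 735, 1279, 2245, 854 and 968 in Control mice 1 to 5 and 6354 to 9444 in the AdCKO mice. Control mouse 3, the highest here, was also the highest Control for all of the 10 genes but Lyve1, Il34 included.

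Genes listed for other cell types were read against the 25.6% of all tested genes called higher and the 28% called lower. Monocyte markers were higher for 3 of 4 tested genes (Ccr2 1.99, Plac8 2.19 and Ly6c2 0.81). Dendritic cell markers were higher for 3 of 4 (1 higher and 1 lower with quantile normalization), led by Itgax (2.57), which macrophages in fat also express. Mast cell markers were higher for 4 of 5, with a median of 2.05. No neutrophil marker reached the test, 5 of 10 were in the table, and their summed level was 8.06 to 9.69 in Control and 12.9 to 18.0 in AdCKO. Of these, Csf3r went from 3.68 to 9.91 without overlap (log2 difference 1.21, adjusted p = 1.45e-05 in the limma fit without a filter). On equal library totals 1 neutrophil marker was tested, and it was called higher. Fibroblast markers were higher for 7 of 8 (median 2.06), blood endothelial markers for 3 of 9 (8 of 9 on equal library totals), T cell markers for 1 of 5 (2 on equal totals, 0 with quantile normalization), B cell markers for 0 of 2 and skeletal muscle markers for 1 of 8 (3 on equal totals). Adipocyte markers were lower for 5 of 8 (median -0.57; 2 lower and 1 higher after scaling to equal totals). With quantile normalization 1 of 8 was lower and their median turned to 0.11. Brown adipocyte markers were lower for 3 of 5, with Ucp1 at -1.42 (2 others higher on equal totals, and 2 lower and 1 higher with quantile normalization). AdCKO mouse 1 stood out for lymphocyte markers. Its summed level was 254 for T cell markers (AdCKO median 62.6) and 112 for B cell markers (AdCKO median 18.1). The highest Control sums were 75.8 and 21.0. For monocyte markers it was the highest too, at 992 (AdCKO median 516). The part of these cell types in the levels of the 10 genes was not tested.

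**Figure D4:**
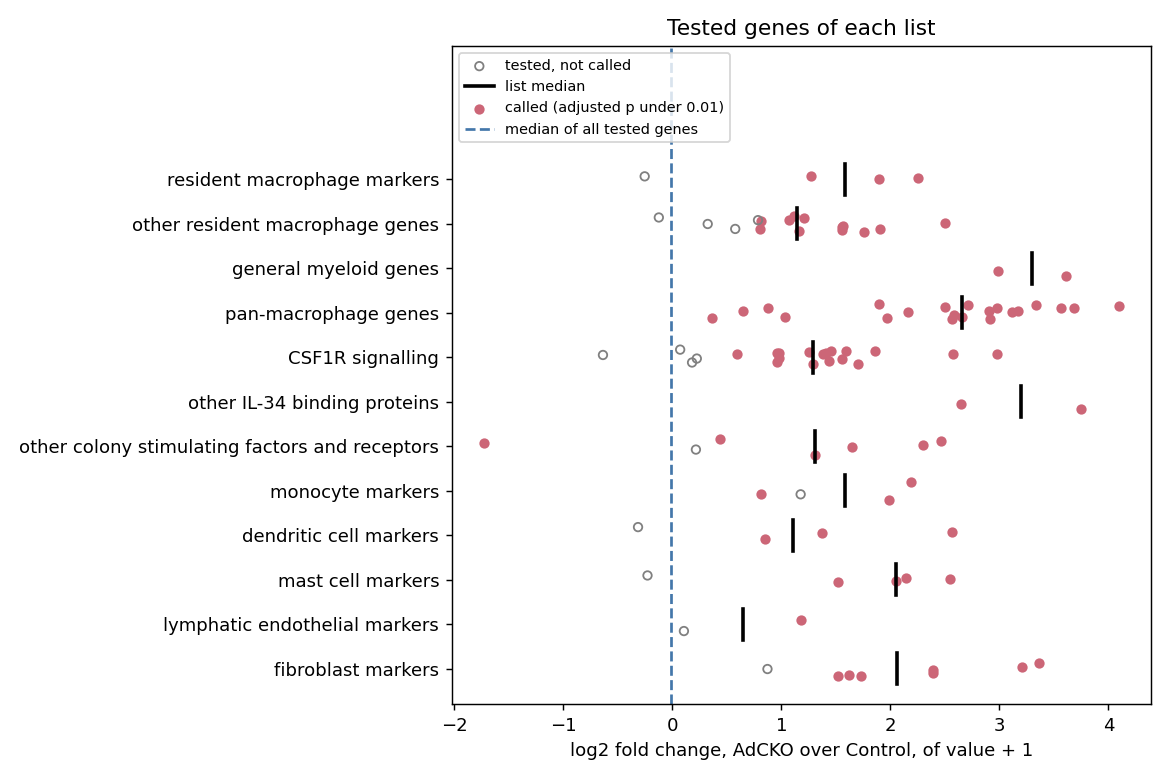
Log2 fold change, AdCKO over Control, of value + 1 for each tested gene of 12 lists (filled, called; open, not called), with the list median (black bar) and the median of all tested genes (dashed line). The general myeloid and pan-macrophage lists have medians of 3.30 and 2.66, above the 1.58 and 1.14 of the resident lists. The first of these medians is of 2 genes, and genes of the pan-macrophage and resident lists overlap.

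Variation between mice of the same group was compared for each pair of genes. After subtracting each group's mean, Csf1r correlated across the 10 libraries with Lyz2 (r = 0.946), Mrc1 (0.913) and Csf1 (0.904), and Lyve1 with Folr2 (0.955). Folr2 correlated with Itgam at 0.839 but with Lyz2 at 0.253, and Lyve1 with Lyz2 at 0.145. Il34 had no r above 0.40 with any of the others. These values describe 10 libraries that share processing, tissue composition and scaling. Control mice 2 and 3 were the highest of their group for Csf1, Csf1r, Mrc1 and Lyz2. Lyve1 and Folr2 varied more within AdCKO than within Control, and AdCKO mice 3 and 5, with little muscle RNA, were the lowest. These few mice can weigh heavily in r. The genes most like Csf1r were Slc31a2 (r = 0.982), AF251705 (0.973) and C1qb (0.972), and those most like Csf1 were Tmed3 (0.977), Tmem43 (0.975) and Serpinf1 (0.960). For Lyve1 they were Folr2 (0.955), Toe1 (0.924) and Wfdc1 (0.917), and for Folr2 they were Lyve1 (0.955), Pcna (0.952) and Wfdc1 (0.932).

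**Figure D5:**
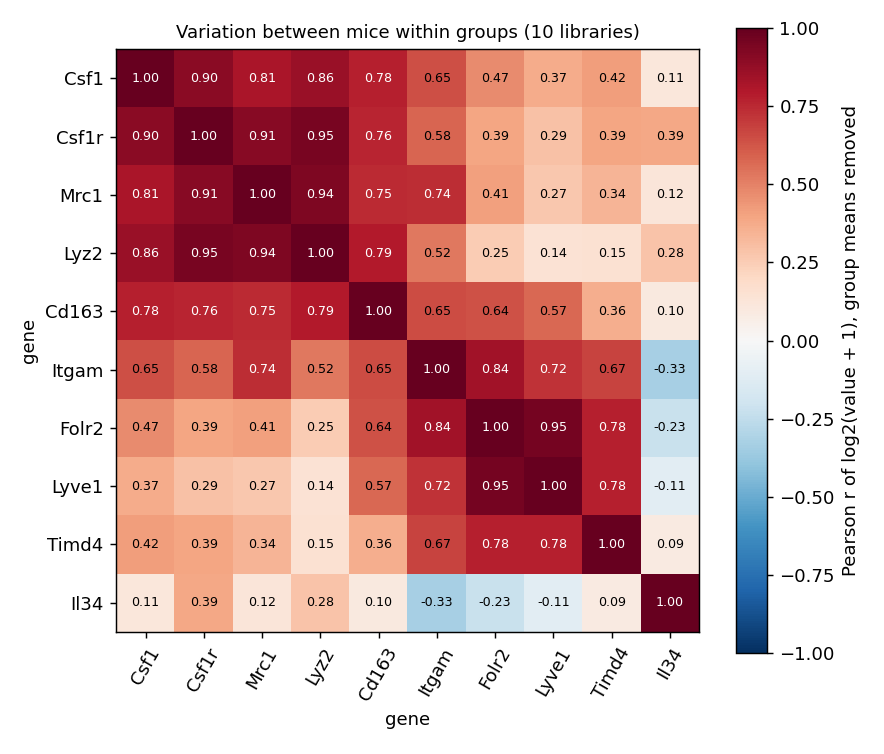
Pearson correlation between each pair of the 10 genes across 10 libraries, on log2(value + 1) with group means removed, from -1 (blue) to 1 (red). Csf1, Csf1r, Mrc1, Lyz2 and Cd163 have r of 0.748 or more with each other, and Folr2, Lyve1 and Timd4 correlate with Itgam, which also has r of 0.737 with Mrc1 and 0.651 with Cd163.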

How the data were processed

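Polyadenylated RNA of whole iBAT from 5 Control and 5 AdCKO mice was analysed, grouped by the genotype in the labels. The authors' pipeline was alignment to mm9 by STAR, HOMER tag directories, exon counting by iRNA-seq and normalization by DESeq2 (versions not given in the sources used here). The deposited unit is treated as a signal: normalized reads divided by the kb of exon counted, which are not counts. None is 0, and the step that removed zeros is not named. Whole reads could not be recovered: at most 25.3% of low values lay within 0.1 of a step, against 20% by chance. Sequencing depth is therefore unknown, no counting interval is given, and errors are the spread between mice. The authors' fold changes, p-values and lists of called genes were not used.

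log2(value + 1) was fitted with limma 3.58.1 in R 4.3.3 (eBayes with intensity trend, two-sided, Benjamini-Hochberg, threshold 0.01) for the 11244 genes whose mean reached 10 in either group. Levels are means ± SD. Ratios were tested by exact permutation of the 5 and 5 libraries (252 arrangements), with a threshold of 0.05 on adjusted p, and correlations have group means subtracted. The test was checked on simulated data. Upstream windows were read from NCBIM37 (mm9), with coordinates counted from 1. Figures were drawn with matplotlib 3.10.9.

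The 10 genes and the gene lists were chosen with earlier results of these data known. From each list, the text names at most 4 genes with the smallest p, called genes that go against the majority, and the most abundant gene. For likeness it names the 3 highest correlations. Lyz1, Vsig4, Cx3cr1, Cd14, Mertk, Prox1, Kitl, Mgl2, Flt4, Pdpn and Ucp1 were also named where a count or a member called for it, after their values were seen. Alternatives were a pseudocount of 0.1 or 10, other filters, scalings and variance models, a replicate block, leaving out each library, and an adjusted p of 0.05. The replicate numbers of the 2 groups were not given as pairs in the labels.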

Additional observations from a re-analysis of the deposited data

Results flagged for a closer look

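Mrc1 in Control mouse 3 was 41.1 normalized reads per kb, set apart from the other 4 Control mice, of which the highest was 21.5. The gap took 0.73 of the range of the 5 Control values, above the limit of 0.71 for 5 samples. Of 20 checks (10 genes in 2 groups) this was the only one past the limit, and chance flags about 1 in 20. Without this mouse the log2 fold change of Mrc1 was 2.50.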

How the results depend on the processing

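The 7 genes called higher kept their direction and their call in every alternative fitted, and no gene of the 10 was called lower in any. Leaving out 1 library at a time gave log2 fold changes of 1.32 to 1.56 for Csf1, 1.80 to 2.15 for Csf1r, 2.13 to 2.50 for Mrc1, 1.13 to 1.45 for Lyve1, 1.78 to 2.10 for Folr2, 3.47 to 3.88 for Lyz2 and 2.86 to 3.14 for Itgam. It gave 0.09 to 0.18 for Il34, -0.43 to -0.05 for Cd163 (from the fit without a filter where Control mouse 3 was left out, since Cd163 then fell under it) and 0.09 to 0.20 for Timd4, none of them called. The scaling mattered most. Scaling to equal library totals gave 7013 higher and 1094 lower genes (2879 and 3152 as deposited), and the median of all genes moved up by 0.47. Il34 (0.60) and Timd4 (0.43) passed and Cd163 turned to 0.18. With quantile normalization Il34 turned to -0.16. Without the filter 3726 genes were higher and 3249 lower, and without AdCKO mice 1, 2 and 4, chosen after seeing the data, 2083 and 2191. The ratio of Folr2 to Csf1r ran from -0.20 to 0.10 over the left-out libraries and turned positive without Control mouse 1 (0.07), Control mouse 4 (0.09) or AdCKO mouse 5 (0.10). That of Mrc1 to Itgam lost its call with a pseudocount of 10 (-0.15). For the text's list counts, 19 of 92 moved, most with equal totals. The cause of these moves was not tested.

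Replicate numbers did not pair the mice: same-numbered mice had correlations of their deviations of -0.07, 0.09, -0.17, -0.27 and 0.10, and no mouse matched its own number best. With a replicate block 2592 genes were higher and 2838 lower, and the same 7 members were called. The block was not run for the ratios, where 5 pairs allow no exact p under 0.0625. Depth is unknown, and for Timd4 the level sets the limit.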
